A study of Homo sapiens with 12 samples.

Results

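CXCR4, the chemokine receptor that reads the ligand CXCL12, was followed together with CXCL12 itself and with ACKR3, the scavenger receptor for the same ligand. These are 3 of the 61163 genes listed in each of the 2 count tables, and all 3 were taken in all 12 libraries. CXCR4 was chosen by its values, as a gene among the largest increases in the knockout, so its comparison between genotypes is given as a description, with no test. CXCL12 and ACKR3 were chosen as its ligand and its scavenger receptor. All 3 passed the filter on low counts in both fractions.

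The libraries came from HEK293T, an established human embryonic kidney line that carries a viral large T antigen. By the sample titles HEK WT is this line without the knockout, while the study's abbreviations give HEK WT as wild-type HEK293. HEK UL1 KO is HEK293T in which HNRNPUL1, the gene of the RNA-binding protein hnRNP UL1, was cut by CRISPR-Cas9 with guides to exons 2 and 3. Whether HEK UL1 KO is a single clone is not given in the sources used here. No treatment is named for either genotype. Each was separated into a nucleolar (NO) and a cytoplasmic-nuclear (CN) fraction, with 3 replicates for each genotype and fraction. Any feature of the knockout line other than the lost gene cannot be told apart from the knockout in these groups.

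CXCR4 spans the cell membrane and couples to inhibitory G proteins. Binding of CXCL12 starts calcium release, PI3K and MAPK signalling and cell migration, after which GRK kinases and arrestins uncouple the receptor and the ubiquitin ligase ITCH sends it to the lysosome. ACKR3 binds CXCL12 without this G protein signalling and takes it up into the cell. The axis is best known for the homing of blood stem cells and leukocytes, and CXCR4 is also a coreceptor of HIV and a gene induced by low oxygen.

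The CXCR4 gene lies on chromosome 2 at chr2:136114349-136118149 of GRCh38, on the minus strand, and CXCL12 lies on chromosome 10 at chr10:44370165-44385097, also on the minus strand. ACKR3 lies on chromosome 2 at chr2:236537122-236582354. The 250 bases before the start of CXCR4 (chr2:136118150-136118399) and of CXCL12 (chr10:44385098-44385347) are shown, because they lie before the receptor that was chosen for its difference between genotypes and before the gene of its ligand. Both are read 5′ to 3′ on the gene's strand from the RefSeq promoter set of GRCh38.p14, and neither window holds an exon base. ACKR3 has no entry in that set. Capitals mark letters found by search on both strands, namely the NRF1 site GCGCATGCGC, the GC box CCGCCC, the TATA box TATAAA and the hypoxia response element, searched as ACGTG or GCGTG.
CXCR4: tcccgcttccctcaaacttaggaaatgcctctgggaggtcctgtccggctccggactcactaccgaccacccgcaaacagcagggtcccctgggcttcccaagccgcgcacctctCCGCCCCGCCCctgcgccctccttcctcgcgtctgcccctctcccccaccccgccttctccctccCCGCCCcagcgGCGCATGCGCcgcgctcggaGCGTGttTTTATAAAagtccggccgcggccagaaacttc
CXCL12: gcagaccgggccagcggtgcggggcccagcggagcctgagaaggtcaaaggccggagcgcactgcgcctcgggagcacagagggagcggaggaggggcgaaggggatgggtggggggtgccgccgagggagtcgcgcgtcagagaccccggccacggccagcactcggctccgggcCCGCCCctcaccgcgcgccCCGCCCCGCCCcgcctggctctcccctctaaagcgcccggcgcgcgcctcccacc
The CXCR4 window is 68% G and C, and the CXCL12 window 78%. In the CXCR4 window the palindromic NRF1 letters lie 59 to 50 bases before the start, and the same letters stand in 1.02% of the 34943 windows of this length. Each window has 3 GC boxes, a motif found in 42.6% of all windows, and in each of them 2 of the 3 overlap. The CXCR4 window also has a TATA box on both strands in 1 run of overlapping letters from 32 to 25 bases before the start (10.8% of windows) and the hypoxia element from 39 to 35 bases before it (43.2% of windows). The CXCL12 window has neither of these, nor the NRF1 letters. The YY1 letters CCATNTT, which 11.6% of windows hold, are in neither window. A match is a description of letters and not of binding.

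The libraries held between 37141666 and 104040073 counts, of which 55.3 to 78.7% fell on rRNA genes, since rRNA was not depleted. HNRNPUL1 itself was lower in all knockout libraries, by 2.00 on the log2 scale in NO (SE 0.323, adjusted p = 0.00649, and 0.258 with total counts, edgeR) and by 1.83 in CN (SE 0.0828, adjusted p = 2.12e-07, edgeR). Each of 6 marker genes of HEK293 cells had at least 10 counts in every library, and no marker of leukocytes (7 genes) or endothelial cells (5 genes) was at 0 in all libraries of a group. Replicate 3 of HEK WT in NO stood apart, with a TMM factor of 1.40 against 0.690 and 0.622 for the other two, and without it the genes called between genotypes in NO went from 327 to 9133. For the members, differences that use HEK WT in NO, its group levels scaled over 12 libraries and the interactions are therefore given with and without that library. So are the counts of listed genes and neighbours called between genotypes in NO. The values of the lists between fractions are given with all libraries only. Without it HNRNPUL1 in NO stood at -2.27 (adjusted p = 6.02e-05, edgeR).

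CXCR4 was a barely counted gene in HEK WT and a readily counted one in HEK UL1 KO. In NO, the 3 HEK WT libraries held 13, 19 and 16 CXCR4 counts, and the 3 HEK UL1 KO libraries held 496, 240 and 284. In CN, the HEK WT libraries held 22, 27 and 18 counts and the HEK UL1 KO libraries 369, 381 and 281. All knockout libraries lay above all wild-type libraries in each fraction, although some of the knockout libraries were shallower.

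As CPM (counts per 1000000 counts, scaled by TMM within the fraction), the CXCR4 level in NO was 0.397 ± 0.168 in HEK WT and 5.60 ± 1.09 in HEK UL1 KO (mean ± SD, n = 3 each), a difference of 3.86 on the log2 scale (SE 0.350) or 14.5-fold. In CN the CXCR4 level was 0.271 ± 0.0484 CPM in HEK WT and 4.96 ± 0.184 in HEK UL1 KO, a difference of 4.18 (SE 0.148) or 18.2-fold. The lowest knockout library was 7.62 times the highest wild-type library in NO and 14.7 times in CN. Levels that do not overlap and are higher in the knockout are common, at 11.0% of the genes tested in NO and 24.7% in CN. The size of the difference placed CXCR4 10th of 34836 genes in NO and 17th of 27234 in CN by log2 fold change. In NO, SLFN11 stood just above it with 4.24 and RIOX1 just below with 3.52. In CN, SPARC with 4.21 and NCKAP5-AS2 with 4.18 were its neighbours in that order. Without replicate 3 of HEK WT the CXCR4 difference in NO was 3.60.

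**Figure D1:**
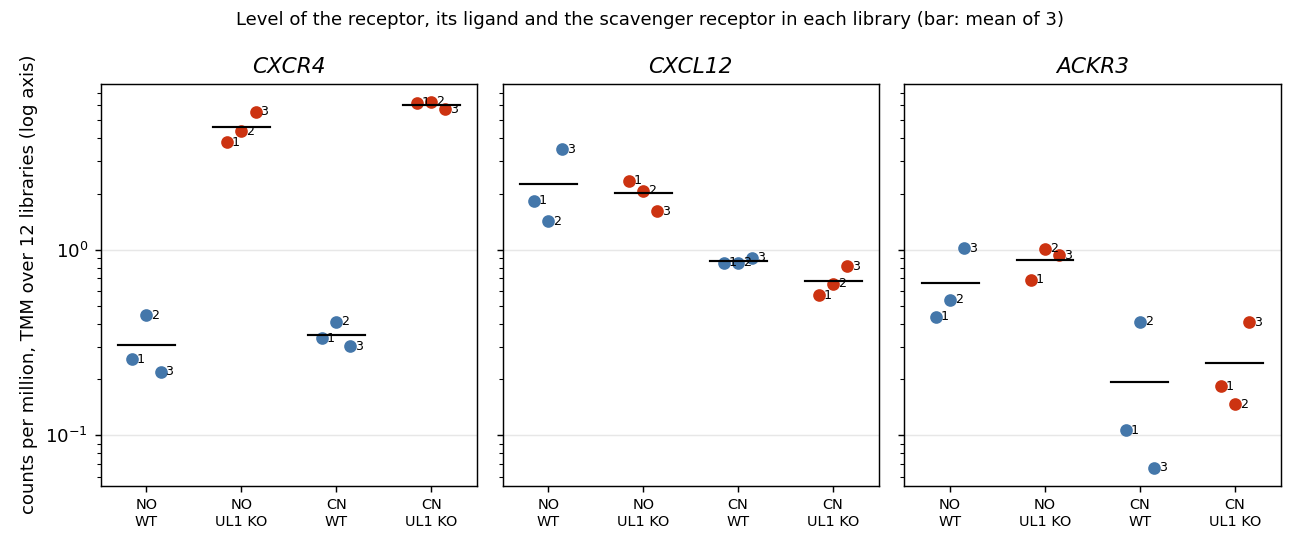
CPM of CXCR4, CXCL12 and ACKR3 in each of the 12 libraries, scaled by TMM over all 12, on a log axis. Points are libraries numbered by replicate (blue HEK WT, red HEK UL1 KO) and bars are means of 3; CXCR4 separates by genotype, and CXCL12 and ACKR3 lie lower in CN than in NO.

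CXCL12, the ligand, did not differ detectably between genotypes in either fraction. In NO the CXCL12 counts were 93, 61 and 252 in HEK WT and 308, 115 and 83 in HEK UL1 KO, or 2.84 ± 1.25 and 2.48 ± 0.461 CPM. The groups overlapped, and the highest CPM, 4.25, was that of replicate 3 of HEK WT. The log2 difference was -0.21 (95% interval -0.87 to 0.45, adjusted p = 0.754, edgeR), and without that library it was 0.20 (adjusted p = 0.525, edgeR), so its sign changed when that library was left out. In CN the counts were 56, 56 and 54 in HEK WT and 34, 40 and 40 in HEK UL1 KO. The CN level was 0.673 ± 0.00921 CPM in HEK WT and 0.558 ± 0.107 in HEK UL1 KO, with the highest knockout library (0.675 CPM) inside the wild-type range. The log2 difference in CN was -0.28 (95% interval -0.75 to 0.19, adjusted p = 0.321, edgeR). These intervals leave room for changes of less than 2-fold in either direction.

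ACKR3, the scavenger receptor, did not differ detectably either. In NO the ACKR3 counts were 22, 23 and 74 in HEK WT and 90, 56 and 48 in HEK UL1 KO, or 0.842 ± 0.360 and 1.09 ± 0.255 CPM. Replicate 3 of HEK WT, at 1.25 CPM, lay among the knockout libraries. The log2 difference was 0.32 (95% interval -0.42 to 1.06, adjusted p = 0.659, edgeR) and 0.72 without that library (adjusted p = 0.0966, edgeR). In CN the counts were 7, 27 and 4 in HEK WT and 11, 9 and 20 in HEK UL1 KO. At such counts the CN difference of 0.36 had a 95% interval of -1.07 to 1.79 (adjusted p = 0.682, edgeR), so that even a change of more than 2-fold in either direction was not detectable. Without replicate 2 of HEK WT it was 1.53, and without replicate 3 of HEK UL1 KO it was -0.16. Exact two-sided permutation tests on the CPM gave p = 0.9 for CXCL12 and 0.4 for ACKR3 in NO, and p = 0.3 and 0.5 in CN, where 0.1 is the smallest p that 3 libraries against 3 allow.

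Levels of different genes were compared per kilobase of exon (RPKM, over the exon union of GENCODE release 44, with TMM over 12 libraries). In HEK WT the NO levels were 0.106 RPKM for CXCR4, 0.365 for CXCL12 and 0.321 for ACKR3. In HEK WT the CN levels were closer together, at 0.120, 0.141 and 0.0938 RPKM. In HEK UL1 KO, CXCR4 stood at 1.57 RPKM in NO and 2.08 in CN, above CXCL12 (0.328 and 0.110) and ACKR3 (0.424 and 0.119). Of the genes with a level above 0, 37.3% lay below CXCR4 in NO of HEK WT and 90.5% in NO of HEK UL1 KO. The share was 45.1% in CN of HEK WT and 88.9% in CN of HEK UL1 KO. Among 23 chemokine receptors by RPKM, CXCR4 ranked 6th in NO of HEK WT and 1st in the other groups, though in CN of HEK WT its 0.120 ± 0.0188 RPKM did not differ from the 0.0938 ± 0.0903 of ACKR3 beyond their spread. In NO of HEK WT the leading receptor was ACKR3 at 0.321 ± 0.151 RPKM, and CCR3 followed at 0.221, inside that spread. Without replicate 3 the NO levels of HEK WT were 0.121 RPKM for CXCR4, 0.265 for CXCL12 and 0.235 for ACKR3. Then 39.0% of genes lay below CXCR4, and CXCR4 and ACKR3 kept their ranks among the receptors. In CN of HEK UL1 KO the receptor after CXCR4 was ACKR2 at 0.163 RPKM.

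The comparison of fractions is another contrast than the one that chose CXCR4 but uses the same libraries, so its CXCR4 values are given as a description, with no test. CXCL12 and ACKR3 were both higher in NO than in CN, in each genotype. On the scale of TMM over 12 libraries, CXCL12 in HEK WT ranged from 1.42 to 3.47 CPM in NO and from 0.848 to 0.907 in CN. The NO excess was 1.39 on the log2 scale in HEK WT (SE 0.289, adjusted p = 0.000888, edgeR) and 1.58 in HEK UL1 KO (SE 0.297, adjusted p = 0.000683, edgeR). The CXCL12 libraries of the 2 fractions did not overlap in either genotype, and neither did those of ACKR3. How many of all genes do not overlap between fractions was not computed.

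ACKR3 ranged from 0.434 to 1.02 CPM in NO and from 0.0672 to 0.409 in CN of HEK WT. Its NO excess was 1.78 in HEK WT (SE 0.514, adjusted p = 0.00665, edgeR) and 1.85 in HEK UL1 KO (SE 0.501, adjusted p = 0.00496, edgeR). Without replicate 3 of HEK WT in NO the ACKR3 excess in HEK WT was 1.28 (adjusted p = 0.0576, edgeR) and that of CXCL12 was 0.91 (adjusted p = 0.0055, edgeR). A higher level in NO was called for 38.6% of all genes in HEK WT and 38.3% in HEK UL1 KO, so that such an excess does not set these genes apart.

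CXCR4 ranged from 0.220 to 0.444 CPM in NO and from 0.302 to 0.409 in CN of HEK WT, which overlap. The log2 difference was -0.24 (95% interval -0.86 to 0.39), and without replicate 3 of HEK WT in NO it was -0.023. In HEK UL1 KO, CXCR4 ranged from 3.79 to 5.52 CPM in NO and from 5.71 to 6.24 in CN. These do not overlap, with no share of all genes to set beside that, and the difference was -0.41 (95% interval -0.85 to 0.024). Its sign turned to 0.30 with total counts and to 0.093 with a minimum of 10 counts per library.

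In the order of the 4 groups, CXCR4 was highest in CN of HEK UL1 KO (6.04 ± 0.291 CPM), then in NO of HEK UL1 KO (4.55 ± 0.882), in CN of HEK WT (0.348 ± 0.0547) and in NO of HEK WT (0.307 ± 0.120). The last pair did not differ beyond its spread, and without replicate 3 of HEK WT in NO its order turned (0.350 CPM in NO). CXCL12 ran in another order, with NO of HEK WT (2.24 ± 1.08 CPM), NO of HEK UL1 KO (2.02 ± 0.375), CN of HEK WT (0.868 ± 0.0332) and CN of HEK UL1 KO (0.679 ± 0.123). The first pair overlapped and did not differ beyond its spread, and without replicate 3 the level in NO of HEK WT was 1.63 CPM, below that of the knockout. ACKR3 stood at 0.878 ± 0.169 CPM in NO of HEK UL1 KO, 0.664 ± 0.312 in NO of HEK WT, 0.246 ± 0.140 in CN of HEK UL1 KO and 0.194 ± 0.187 in CN of HEK WT. Without replicate 3 the ACKR3 level in NO of HEK WT was 0.486 CPM. The ACKR3 libraries of the 2 genotypes overlapped in each fraction. For CXCL12 and ACKR3 the step between fractions was larger than the step between genotypes. The interaction of genotype and fraction was 0.20 on the log2 scale for CXCL12 (95% interval -0.66 to 1.06) and 0.070 for ACKR3 (95% interval -1.50 to 1.64), each with an adjusted p of 1 (edgeR), beside 0.114% of all genes called. Without replicate 3 of HEK WT in NO it was 0.66 for CXCL12 (adjusted p = 0.663, edgeR) and 0.55 for ACKR3 (adjusted p = 0.924, edgeR). For CXCR4 it was -0.18 (SE 0.370), and -0.41 without that library, given as a description.

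Markers of cell types other than HEK293 had the same tilt toward NO as CXCL12 and ACKR3. The median NO excess of the 6 tested leukocyte markers was 1.08 in HEK WT and 1.28 in HEK UL1 KO, with 3 and 5 of them called higher, beside 38.6% and 38.3% of all genes. The 5 endothelial markers had a median of 1.95 and 1.73, and all 5 were called higher in each genotype. The 16 tested chemokine receptors had a median of 1.87 and 1.31, and the 19 tested ligands of 1.35 and 1.37. The 6 markers of HEK293 cells had a median of -0.40 and -0.76, with 2 called higher (PAX2 and KRT8) and 2 lower in HEK WT and 1 higher and 3 lower in HEK UL1 KO (lower in NO were 27.4% of all genes in HEK WT and 28.4% in HEK UL1 KO), beside a median of 0.26 and 0.25 over all genes. The summed endothelial level ranged from 4.37 to 12.3 CPM in NO of HEK WT, 8.24 to 11.5 CPM for the knockout in NO, 1.13 to 2.85 CPM for HEK WT in CN and 2.72 to 3.47 CPM for the knockout in CN. The summed leukocyte level ranged from 2.94 to 4.84, from 4.06 to 4.67, from 1.34 to 1.80 and from 1.34 to 1.93 CPM in the same order. No defining marker of either type was at 0 in all libraries of a group. Their part in the NO excess of CXCL12 and ACKR3 was not tested. Between genotypes, a change in the number of cells that express a gene cannot be told apart from a change in RNA per cell.

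**Figure D2:**
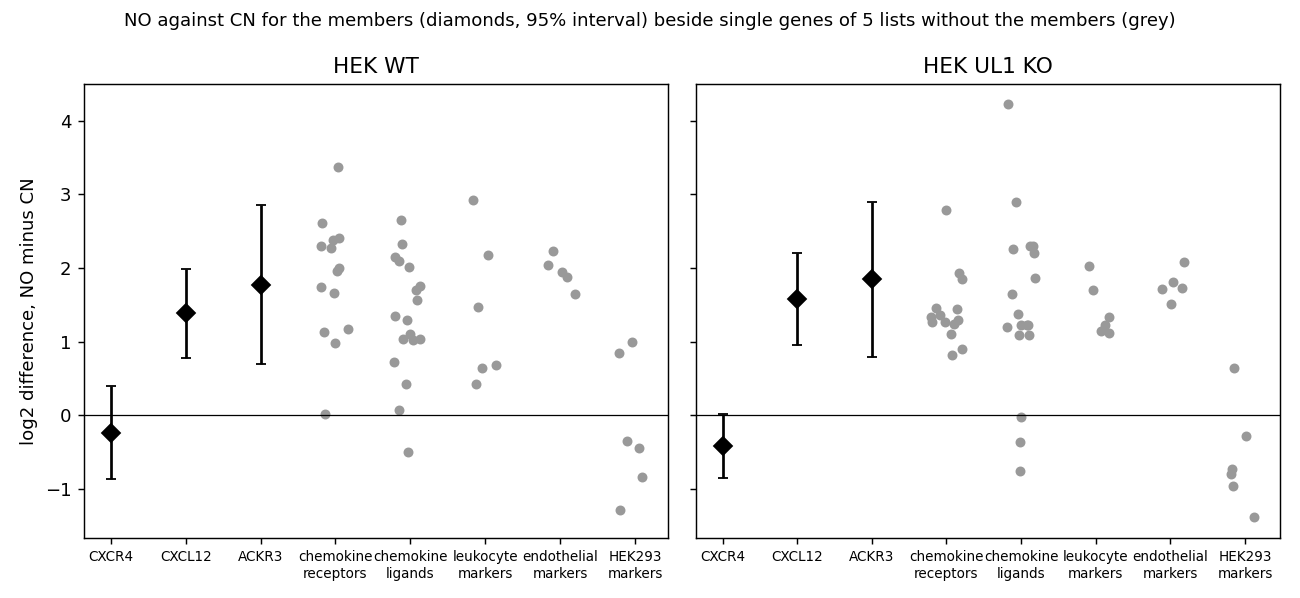
Log2 difference of NO minus CN in HEK WT (left) and HEK UL1 KO (right). Diamonds are CXCR4, CXCL12 and ACKR3 with 95% intervals, grey points are single genes of 5 lists; CXCL12 (1.39 and 1.58) and ACKR3 (1.78 and 1.85) lie among the other chemokine genes and the leukocyte and endothelial markers, and CXCR4 (-0.24 and -0.41) lies below most of them.

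The genes around the receptor were taken from 7 lists with 149 distinct genes, the 3 members included. Since CXCR4 was chosen for its difference between genotypes, it is left out where stated. Of the genes other than CXCR4, 109 were tested in NO and 0 were called in either direction, against 0.365% of all genes called higher and 0.574% called lower. At an unadjusted p under 0.05 there were 5574 of 34836 genes in that comparison. Without replicate 3 of HEK WT, 111 listed genes other than CXCR4 were tested in NO, of which 6 were called higher (5.41%) and 21 lower (18.9%), against 9.87% and 15.3% of all genes in that fit. With CXCR4 included these were 7 higher and 21 lower, of which 2 and 0 were receptors, 2 and 0 ligands, 0 and 2 binding partners, 3 and 9 signalling genes, 0 and 5 genes of desensitisation and sorting, 0 and 4 transcription regulators and 0 and 1 genes induced by low oxygen. DESeq2 called 1 higher, CXCR4 included, and 1 lower, beside 259 and 823 of all genes.

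In CN, 87 genes of the lists other than CXCR4 were tested, of which 17 were called higher (19.5%) and 27 lower (31.0%), against 15.6% and 22.3% of all genes. The median log2 fold change of the listed genes other than the members was -0.054 in CN and -0.075 in NO, beside 0.038 and 0.0040 over all genes. The calls in the lower direction depended on the scaling. With total counts in place of TMM the median of all genes moved to 0.24 in CN and 0.40 in NO, 14 listed genes were higher, CXCR4 included, and 2 lower in CN, and the calls over all genes in CN changed from 4253 higher and 6070 lower to 3697 and 1724. The fit of all 12 libraries called 5 listed genes higher, CXCR4 included, and 3 lower in CN, beside 1792 and 2425 of all genes.

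Of the other chemokine receptors, 5 besides CXCR4 were tested in CN and 2 were called higher, beside 15.6% of all genes. CCR3, an eotaxin receptor, rose from 0.213 to 0.455 CPM, or by 1.07 on the log2 scale, at 9 to 36 counts a library (adjusted p = 0.0433, edgeR), a call kept in 4 of 12 alternatives and lost, among others, with total counts, with DESeq2 and on leaving out replicate 1 or 3 of HEK WT or replicate 2 or 3 of HEK UL1 KO. ACKR2, which scavenges CC chemokines, rose from 0.398 to 0.731 CPM, or by 0.87 (adjusted p = 0.022, edgeR). In NO the values were -0.12 for CCR3 and 0.43 for ACKR2, neither called. The highest log2 fold change in NO among listed genes other than the members was 1.15 (CXCR2, 2 to 48 counts, adjusted p = 0.278, edgeR).

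The ligand list had 6 of 44 genes tested in CN. Of these, 2 were called higher and 0 lower, beside 15.6% and 22.3% of all genes. XCL1, a ligand of XCR1, rose from 0.543 to 1.31 CPM (log2 fold change 1.27, SE 0.170, adjusted p = 0.000227, edgeR). CXCL16, a ligand of CXCR6, rose by 1.12 at 10 to 28 counts a library (adjusted p = 0.0252, edgeR), a call kept in 6 of 13 alternatives and lost, among others, with DESeq2 and on leaving out replicate 1 or 2 of either genotype. In NO 17 ligands were tested and 0 called, and 2 were called higher without replicate 3 of HEK WT, beside 9.87% of all genes. CN had 21 ligands with at most 3 counts in every library.

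Of 4 tested binding partners of the axis, 1 was called higher and 1 lower in CN, beside 15.6% and 22.3% of all genes. DPP4, the protease that clips and inactivates CXCL12, rose by 0.67 (adjusted p = 0.0147, edgeR). HMGB1, which binds CXCL12, was lower by 0.28 on the log2 scale (log2 fold change -0.28, adjusted p = 0.00979, edgeR), a call lost with total counts (-0.083).

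All 31 genes of the signalling list were tested, with 6 called higher and 11 lower in CN, beside 15.6% and 22.3% of all genes. PLCB2, a phospholipase C of blood cells, rose by 2.63 (SE 0.446, adjusted p = 0.00105, edgeR) from 0.0687 to 0.434 CPM, at 2 to 39 counts a library. PTK2B, a focal adhesion kinase, rose by 0.83 (adjusted p = 0.00154, edgeR), and PIK3CD, the leukocyte PI3K catalytic subunit, by 0.73 (adjusted p = 0.0269, edgeR), a call kept in 7 of 13 alternatives.

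Of the 20 tested genes for desensitisation and sorting of the receptor, 4 were called higher and 3 lower in CN. The shares of all genes were 15.6% and 22.3%. RGS16, which speeds the shut-off of G proteins, rose from 0.343 to 0.901 CPM (1.38, SE 0.230, adjusted p = 0.000934, edgeR). ARRB2, an arrestin, rose by 0.48 (adjusted p = 0.00841, edgeR). GRK3, a receptor kinase, was lower by TMM (-0.66, adjusted p = 0.000166, edgeR), as was the endosomal ATPase VPS4B (-0.42, adjusted p = 0.0235, edgeR), and both calls were lost with total counts (-0.45 and -0.22).

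Of 9 tested transcription regulators of CXCR4, 0 were called higher and 7 lower in CN, beside 15.6% and 22.3% of all genes. Over the 13 alternatives the lower calls of this list ranged from 1 to 7. NFKB1, a subunit of NF-kappa B, fell from 7.43 to 3.21 CPM (-1.21, SE 0.146, adjusted p = 0.000117, edgeR), and it was also lower with total counts (-0.97). VHL, which marks HIF1A for breakdown, stood at -0.50 (adjusted p = 0.00198, edgeR), NRF1, an activator whose site is in the window shown, at -0.36 (adjusted p = 0.00669, edgeR), and YY1, a repressor, at -0.30 (adjusted p = 0.00836, edgeR). These 3 calls were lost with total counts, with values of -0.32, -0.15 and -0.10.

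Of 13 tested genes that low oxygen induces, 2 were called higher and 5 lower in CN, beside 15.6% and 22.3% of all genes. NDRG1 rose from 3.21 to 6.65 CPM (1.05, SE 0.109, adjusted p = 4.74e-05, edgeR) and ANKRD37 by 0.96 (adjusted p = 0.0265, edgeR), the latter a call kept in 7 of 13 alternatives. PDK1, which holds back pyruvate oxidation, stood at -0.42 (adjusted p = 0.00148, edgeR) and LDHA, a lactate dehydrogenase, at -0.35 (adjusted p = 0.00483, edgeR), and with total counts neither was called (-0.22 and -0.16). Of the 22 genes that the naming rule took from the lists in CN, 6 kept their call under every alternative run, among them NDRG1, NFKB1, PLCB2, RGS16 and XCL1. DESeq2 did not call CCR3, CXCL16, PIK3CD, ARRB2 or ANKRD37, and ACKR2, DPP4 and PIK3CD were each among the calls lost when a single knockout library was left out.

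**Figure D3:**
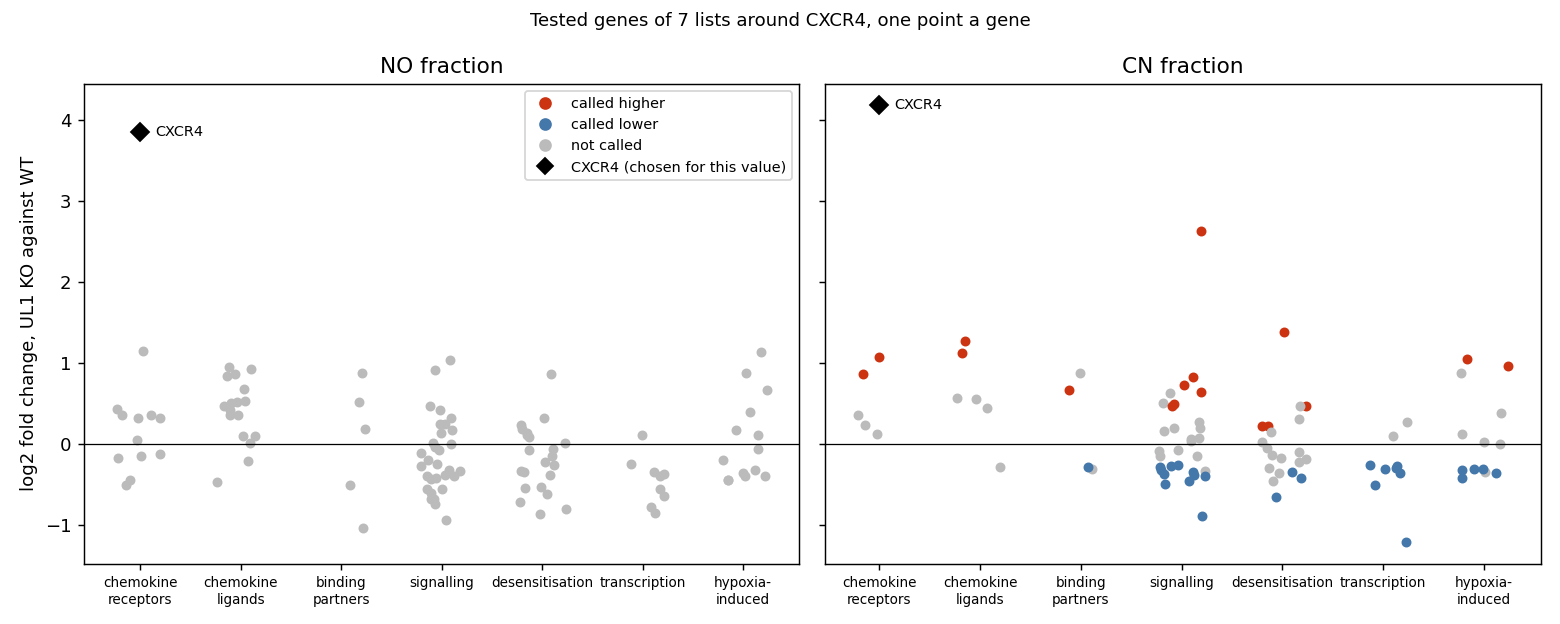
Log2 fold change of HEK UL1 KO against HEK WT for each tested gene of the 7 lists, in NO (left) and CN (right), by TMM. Red points were called higher, blue lower and grey were not called; CXCR4 (black diamond, chosen for this value) lies at 3.86 and 4.18, above the other points, the highest of which is PLCB2 at 2.63 in CN.

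Markers of cell type also moved with genotype. In CN, KRT8 (2.30, adjusted p = 3.39e-06, edgeR), KRT18 (1.28, adjusted p = 0.000545, edgeR) and PAX2 (0.76, adjusted p = 0.0131, edgeR) rose among the HEK293 markers. VIM fell in CN (-1.47, adjusted p = 9.16e-06, edgeR) and in NO (-1.60, adjusted p = 0.0246, edgeR), and the call in NO was kept in 7 of 13 alternatives and lost, among others, with total counts (-1.09, adjusted p = 0.486, edgeR) and on leaving out replicate 1 or 2 of either genotype. Without replicate 3 of HEK WT it was -1.82 (adjusted p = 0.000599, edgeR). Of the 6 markers, 3 were called higher and 2 lower in CN, beside 15.6% and 22.3% of all genes. The lower call besides VIM was NEFM (-0.54, adjusted p = 0.037, edgeR). The summed level of the HEK293 list ranged from 49.9 to 62.0 CPM in CN of HEK WT and from 29.7 to 30.6 in CN of HEK UL1 KO. VIM carried this difference, with 34.5 to 50.3 CPM in HEK WT and 12.5 to 14.9 in HEK UL1 KO, while the sum of the other 5 markers ranged from 11.8 to 15.4 and from 15.3 to 17.2 CPM. Of the leukocyte list 1 of 3 tested genes was called in CN, and of the endothelial list 1 of 5. Both were higher, beside 15.6% of all genes called higher in CN. LCP1 of the leukocyte list (0.78, adjusted p = 0.0487, edgeR) and VWF of the endothelial list (0.87, adjusted p = 0.0329, edgeR) were higher in CN by TMM, calls kept in 2 of 13 alternatives for LCP1 and in 8 of 13 for VWF, and neither was called with total counts or in the fit of all 12 libraries. The other tested leukocyte and endothelial markers were not called in CN, with ITGAM at -0.26 and the rest between 0.033 (TEK) and 1.07 (KDR). Their part in the CXCR4 difference was not tested. The summed leukocyte levels of the 2 genotypes overlapped in each fraction, as given above.

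The neighbours of CXCR4 on chromosome 2 were looked at in the same way. Within 500 kb of its annotated start, taken as the lowest coordinate of each gene whatever its strand, 15 other genes were in the count tables, and 7 were tested in CN and 8 in NO. In CN 0 were called higher and 4 lower by TMM, beside 15.6% and 22.3% of all genes. Among these, the pseudogene HNRNPKP2 stood at -0.59 (adjusted p = 0.0127, edgeR), UBXN4 at -0.43 (adjusted p = 0.00118, edgeR) and the replication helicase subunit MCM6 at -0.41 (adjusted p = 0.00089, edgeR). With total counts none of the 4 was called, with values of -0.36 for HNRNPKP2, -0.23 for UBXN4 and -0.20 for MCM6. HNRNPKP2 is a pseudogene of the expressed gene HNRNPK, so reads of this pair may be shared. In NO 0 of the 8 were called, beside 0.365% of all genes called higher and 0.574% lower. In that fraction 0 were called higher and 4 lower without replicate 3 of HEK WT, beside 9.87% and 15.3%. At these shares and numbers of genes, the absence of a higher call does not set the neighbours apart. The nearest gene tested, HNRNPKP2, starts 84.6 kb from CXCR4. Around CXCL12, 7 neighbours were in the tables, of which 5 were tested in NO and 3 in CN, and around ACKR3, 16, of which 7 and 4 were tested. None of these was called in either fraction. In NO, 1 of 9 tested neighbours of ACKR3 and 0 of 5 of CXCL12 were called higher without replicate 3 of HEK WT.

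**Figure D4:**
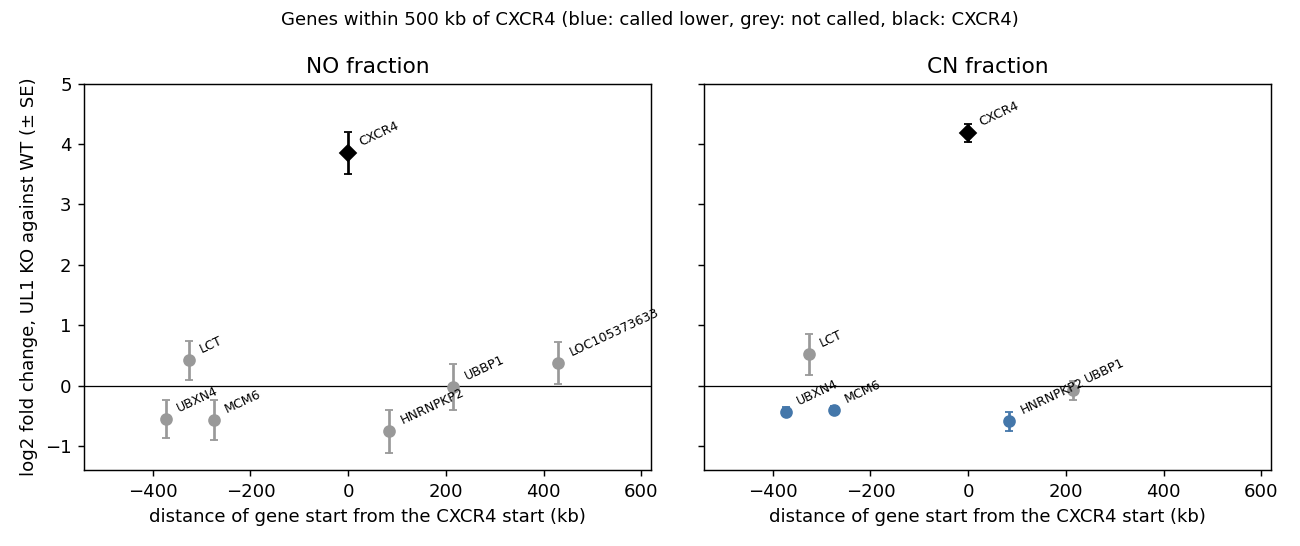
Log2 fold change (± SE) of HEK UL1 KO against HEK WT for most of the tested genes within 500 kb of the CXCR4 start, against the distance of their start in kb, in NO (left) and CN (right). CXCR4 (black diamond) stands at 3.86 and 4.18, and the neighbours called lower in CN that are drawn (blue) are HNRNPKP2 at -0.59, UBXN4 at -0.43 and MCM6 at -0.41.

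The genes whose log2 CPM followed CXCR4 most closely over the 12 libraries were looked for among 26397 genes that passed the filters. They were CCN2 (Pearson r = 0.990), a matricellular growth factor, PCDH19 (0.978), a protocadherin, TSSC2 (0.977), ERBB3 (0.972), a receptor kinase of the EGF receptor family, and LYPD1 (0.970). These coefficients are descriptions, since the 12 points fall into 4 groups that share a genotype and a fraction and these genes were picked as the most alike. The mean CCN2 level was 0.351 CPM in HEK WT and 3.05 in HEK UL1 KO in NO, and 0.513 and 3.90 in CN. The mean LYPD1 level was 0.500 and 3.43 CPM in NO, and 0.468 and 5.47 in CN. The mean PCDH19 level was 4.10 and 16.4 CPM in NO, and 3.46 and 27.7 in CN. The coefficients of the ligand and the scavenger receptor with CXCR4 were -0.25 for CXCL12 and 0.15 for ACKR3.

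**Figure D5:**
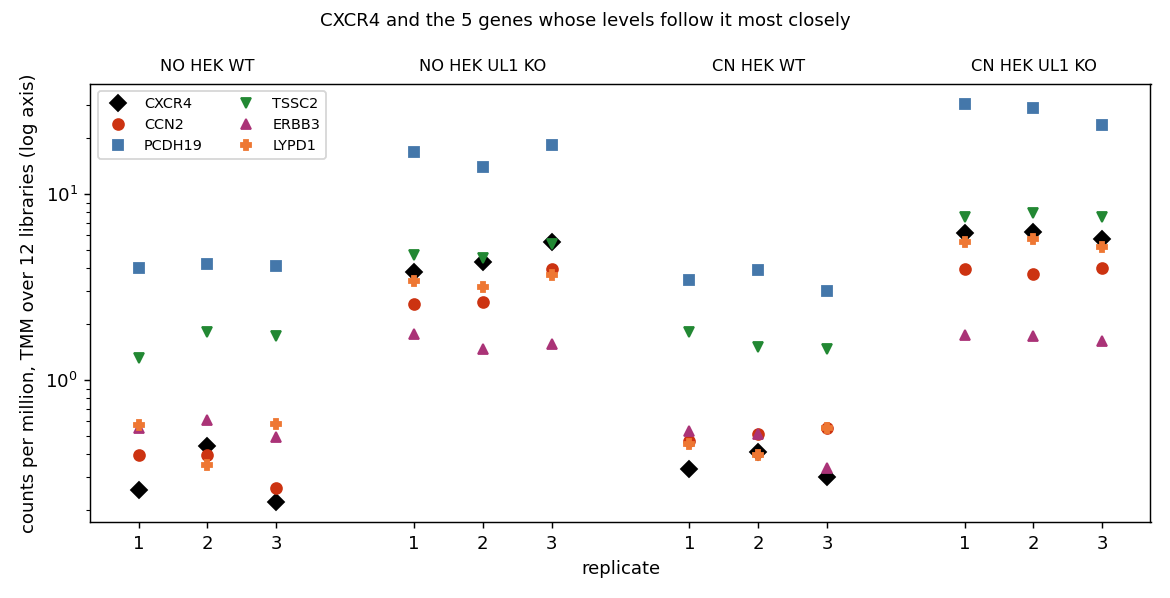
CPM (TMM over 12 libraries, log axis) of CXCR4 and the 5 genes with the highest correlation to it, in each replicate of the 4 groups. Each gene is higher in all 3 libraries of HEK UL1 KO than in all 3 of HEK WT of the same fraction, with CXCR4 between 0.220 and 0.444 in HEK WT and between 3.79 and 6.24 in HEK UL1 KO.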

How the data were processed

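RNA of 4 groups, HEK WT and HEK UL1 KO in the NO and CN fractions, was measured with 3 replicates each. According to the methods of the study and the submitters' processing notes, the authors sequenced total RNA in single reads of 75 bases without rRNA depletion, trimmed them with Cutadapt 3.7, aligned them to GRCh38 with STAR 2.7.8, allowing 20 alignments per read, and assigned reads to genes with featureCounts. The deposited values are raw whole-number counts by the authors, 1 table per fraction. The strand setting and the annotation are not given in the sources used here, so reads of antisense or near-identical genes may be shared. All 12 columns were matched to samples by title, and 0 were left over.

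Counts were tested with edgeR 4.0.16 in R 4.3.3 (filterByExpr with a minimum count of 10 and a minimum total of 15, TMM, quasi-likelihood F test, Benjamini-Hochberg adjustment over all genes tested, calls under an adjusted p of 0.05). The genotypes were compared inside each fraction on 6 libraries. NO was compared with CN, and the interaction of genotype and fraction tested, in 1 fit of 12 libraries. CXCR4 was in that fit too, but its values are given with no p. Intervals cover 95% and use the residual and prior degrees of freedom of that test. Each edgeR p-value sets a difference against the spread between the 3 replicates of a group. That spread was estimated with information from other genes and, in the fit of 12 libraries, over all 4 groups. CPM were computed from the same TMM scaling, and log2 CPM for correlations had a prior count of 2. Figures were drawn with matplotlib 3.10.9. The tests were checked on simulated counts in which 200 genes changed by 2 on the log2 scale. Between genotypes edgeR recovered 177 of these in NO and 194 in CN, with 7.33% and 6.28% of its calls false. DESeq2 had 12.3% and 8.13% of its calls false. Between fractions in HEK WT and for the interaction, edgeR recovered 191 and 151, with 7.73% and 8.48% of its calls false. The changed genes were drawn above a minimum mean count, so recovery at counts as low as those of ACKR3 in CN was not checked. They were raised and lowered in equal numbers and were far fewer than the genes called in CN.

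The members and the lists were chosen with earlier results of these data known. Genes named are the members, HNRNPUL1, up to 4 called genes with the largest change per list and fraction, called neighbours within 500 kb and the 5 genes most alike CXCR4. SLFN11, RIOX1, SPARC, NCKAP5-AS2, CXCR2 and NEFM were named after their values were seen. So were CCR3 and ACKR2 in NO and PAX2 and KRT8 between fractions. Some genes that the rule takes are not reported here, and the counts include them. Alternatives were total counts, TMM without rRNA genes, DESeq2 1.42.0, no filter, a minimum of 10 counts per library, 1 fit of all 12 libraries, a replicate block and leaving out each library. A fit of NO against CN on 2 groups alone was chosen after seeing the data.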

Additional observations from a re-analysis of the deposited data

How the results depend on the processing

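The value of CXCR4 between genotypes kept its sign in every alternative run. With total counts it was 4.34 in NO and 4.39 in CN, and over the libraries left out in turn it ranged from 3.60 to 4.23 and from 4.13 to 4.33. CXCL12 in NO turned to 0.033 with total counts and ranged from -0.41 to 0.20 with a library left out. ACKR3 in CN ranged from -0.16 to 1.53 with a library left out (-0.0063 without replicate 3 of HEK WT). At the counts of ACKR3 in CN (4 to 27 a library), depth limits what can be seen, and the minimum of 10 counts per library left it out.

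Genes called between genotypes in NO numbered 10 with total counts, 1190 with no filter, 143 with a minimum of 10 counts per library, 1082 with DESeq2, 1744 in the fit of 12 libraries, and from 123 to 9133 with a library left out (the extremes being replicates 1 and 3 of HEK WT). In CN they numbered 5421 with total counts and 4217 in the fit of 12 libraries. Listed genes called, CXCR4 included, in NO were 3 higher and 2 lower in the fit of 12 libraries, 1 lower with no filter and with DESeq2, and from 1 to 7 higher and from 0 to 21 lower with a library left out. In CN they were 10 higher with DESeq2, 5 higher and 3 lower in the fit of 12 libraries, 2 lower with total counts, and from 10 to 19 higher with a library left out.

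Between fractions, CXCR4 in HEK WT turned to 0.33 with total counts, 0.24 with a minimum of 10 counts per library and 0.042 on 2 groups alone. In HEK UL1 KO it turned to 0.30 and 0.093 with the first 2 of these, and it was -0.55 with no filter and -0.44 on 2 groups alone. With a library left out it ranged from -0.61 to -0.30, and CXCR4 in HEK WT ranged from -0.60 to -0.023. ACKR3 in HEK WT ranged from 1.25 to 2.90 with a library left out. Genes called numbered 9879 in HEK WT and 8886 in HEK UL1 KO with a minimum of 10 counts per library, and 15494 in HEK WT on 2 groups alone.

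The interaction of CXCR4 ranged from -0.41 to 0.15 and that of CXCL12 from -0.026 to 0.66 with a library left out. That of ACKR3 turned to -0.011 with TMM without rRNA genes and to -0.048 with no filter, and ranged from -1.08 to 0.55 with a library left out. Interaction calls numbered 0 with total counts, 104 with no filter, 20 with a minimum of 10 counts per library, 79 with DESeq2, and from 25 to 57 with a library left out. The cause of these shifts was not tested.

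Whether the replicate numbers pair the libraries could not be decided. Where numbers matched across groups, the deviations correlated at -0.54 to -0.052. Libraries with unlike numbers were not correlated, so these values have no reference. With a replicate block CXCR4 stood at 3.87 in NO and 4.19 in CN, 225 genes were called between genotypes in NO and 8438 in CN, and no call for CXCL12 or ACKR3 changed. The calls of VIM in NO and of ANKRD37, CCR3, CXCL16, LCP1, PIK3CD and VWF in CN were lost with it.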
